A study of Homo sapiens with 6 samples.

Results

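The SLC25 genes encode the mitochondrial carrier family, and the 48 genes described here are all rows of the deposited count table whose symbol is SLC25A followed by a number alone, out of 27469 genes. They were measured in HMC3, an immortalised human microglial line, in 3 libraries of cells given the cytokine interleukin-33 (IL-33) for 24 h and in 3 Control libraries. The sources used here give neither the dose of IL-33 nor whether the libraries came from separate cultures, and the p-values cover the spread of these libraries only, technical or not. Each library reads short tags from transcript 3′ ends, so counts are not scaled by transcript length. Levels are in CPM, counts scaled to an effective library of 1e+06, where the library size is first adjusted by the TMM scaling factor of edgeR. They can be set beside each other between genes. The table gives 1 value per gene symbol. It therefore resolves which paralog of a carrier was used, but not which spliced form of a gene.

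Carriers of this family sit mostly in the inner mitochondrial membrane and move nucleotides, phosphate, carboxylates, amino acids, cofactors and iron between the cytosol and the matrix. Several substrates are served by more than 1 paralog, and tissues differ in the paralog they use. The ADP/ATP carriers, which exchange matrix ATP for cytosolic ADP, are the standard example: SLC25A4 is the form of heart and muscle, SLC25A5 that of proliferating cells, SLC25A6 is broadly expressed and SLC25A31 belongs to germ cells. Reads can be assigned to 1 of these paralogs only where their sequences differ. The coding stretch below holds, in capitals, the codons of the arginine and methionine signature that marks nucleotide-exchanging carriers of this kind (GENCODE release 29 transcripts, GRCh38). Its conservation was not compared with that of other parts of these genes.
SLC25A4: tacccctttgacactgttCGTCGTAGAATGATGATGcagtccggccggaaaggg
SLC25A5: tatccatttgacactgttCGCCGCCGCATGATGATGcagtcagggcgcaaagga
SLC25A6: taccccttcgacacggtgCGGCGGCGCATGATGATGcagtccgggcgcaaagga
SLC25A31: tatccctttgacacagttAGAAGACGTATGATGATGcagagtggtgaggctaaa
The SLC25A4 stretch lies in exon 3 of 4 on chromosome 4 from 185145845 to 185145898, and that of SLC25A5 in exon 3 of 4 on chromosome X from 119470459 to 119470512, both on the plus strand. The SLC25A6 stretch lies in exon 3 of 4 on the minus strand of chromosome X from 1387280 to 1387333, and that of SLC25A31 joins exons 5 and 6 on chromosome 4. Of its 54 bases, SLC25A4 and SLC25A5 differed at 10, SLC25A4 and SLC25A6 at 10, SLC25A5 and SLC25A6 at 8, and SLC25A31 from the others at 19 to 21. In the last 300 bases of the annotated coding transcripts, where the tags fall, 0 of the 50-base windows of these 4 genes occurred in a transcript of another gene symbol.

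The libraries held between 5739947 and 10217529 counts. Control 3, of lowest depth, stood apart on the first principal component of all tested genes (a score of 55.0, against -18.04 to 0.86 for the other 5 libraries), and many values are also given without it. Over all 12125 genes tested, the quasi-likelihood test of edgeR called 0% at a Benjamini-Hochberg adjusted p of 0.05 (0 genes, with 295 at an unadjusted p under 0.05, DESeq2 calling 1 and limma-voom 0). Of 8 microglial marker genes, 6 had 0 counts in every library, namely ITGAM, P2RY12, TMEM119, CX3CR1, SPI1 and TYROBP, and the summed level of the list lay between 0.0977 and 1.49 CPM with IL-33 and between 0 and 1.45 CPM in Control. Fibroblast and pericyte markers summed to between 947 and 1096 CPM with IL-33 and between 851 and 1053 CPM in Control. Of these 6, COL3A1 and ACTA2 were at 0. Means over all libraries were 721 CPM for COL1A1, 210 for THY1, 36.4 for PDGFRB and 15.6 for COL1A2. Neuronal markers summed to 28.8 to 38.0 CPM with IL-33 and 23.7 to 33.3 CPM in Control. Most of this was TUBB3, with a mean of 27.0 CPM over all libraries. SNAP25 had a mean of 2.96 CPM, and SYT1 and RBFOX3 had 20 and 11 counts in all. Astrocyte markers summed to 0.320 to 1.30 CPM with IL-33 and 0 to 1.49 CPM in Control. No cell type is assigned from these lists.

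Of the 48 carriers, 24 had a mean of 10 CPM or more, and a further 12 passed the filter on low counts, so that 36 were tested. Of the other 12, SLC25A2, SLC25A6, SLC25A47 and SLC25A48 had 0 counts in every library and 8 had too few counts. Together the carriers made up 1869, 1918 and 1948 CPM in the IL-33 libraries and 2059, 1951 and 1739 CPM in the Control libraries. The means, 1912 ± 40.3 CPM with IL-33 and 1916 ± 163 CPM in Control (SD, n = 3 each), differed by less than the spread of the Control libraries. In bulk RNA, a difference in the number of cells that express a gene and one in the RNA per cell cannot be told apart. SLC25A3 and SLC25A5 alone took 39.3%, 42.9% and 41.3% of the carrier counts with IL-33 and 43.1%, 41.8% and 34.3% in Control.

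**Figure D1:**
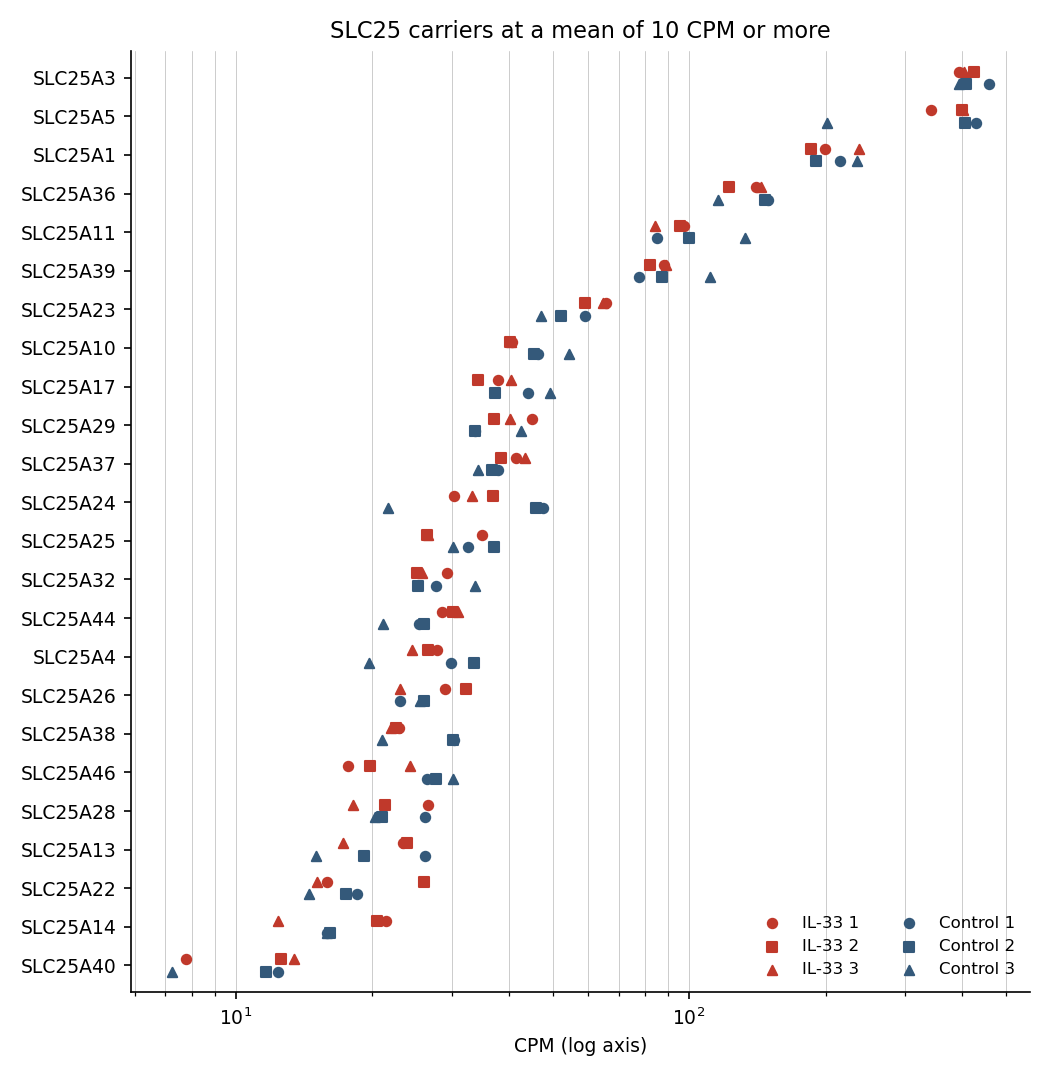
Level of each SLC25 carrier with a mean of 10 CPM or more (CPM, log axis) in the 3 IL-33 libraries (red, upper of each pair) and the 3 Control libraries (blue, lower); each point is 1 library. SLC25A3 and SLC25A5 stand highest, and Control 3 (blue triangle) lies at 201 CPM in SLC25A5, far below the other libraries.

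No carrier passed the test between IL-33 and Control: 0 of the 36 tested were called higher and 0 lower, where 0% of all genes were called. Their median log2 fold change was 0.03, against -0.01 for all genes tested, with 19 above 0 and 17 below. Without Control 3, 14 were above 0 and 22 below, and 13 carriers had the other sign. At an unadjusted p under 0.05 there was 1 carrier, SLC25A46, which is 2.78% of those tested, near the 2.43% of all genes (0.981% in its direction, lower with IL-33). Groups without overlap were found in 5 carriers (13.9%), against 8.06% of all genes. In SLC25A23, SLC25A37 and SLC25A44 every IL-33 library was higher than every Control library (8.33%, against 4.54% of all genes). In SLC25A10 and SLC25A46 every IL-33 library was lower (5.56%, against 3.51% of all genes). For all 24 carriers at 10 CPM or more, the log2 fold change had a 95% interval between -1 and 1, and the largest difference among them was 0.45 in size. Among the 36 tested, 29 (80.6%) had such an interval, against 73.4% of all genes. The share among all genes at 10 CPM or more was not computed, so the 24 have no matching background.

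The nucleotide and phosphate carriers held the 2 members with the highest mean CPM, with no level known for SLC25A6. SLC25A3, which imports the phosphate used by ATP synthase (chromosome 12, 98593591 to 98606379), measured 393, 424 and 403 CPM with IL-33 and 458, 409 and 394 CPM in Control. The groups overlapped, and its log2 fold change of -0.05 ± 0.09 (SE, 95% interval -0.24 to 0.15, and -0.09 without Control 3) had the smallest SE of the tested carriers. SLC25A5 (chromosome X, 119468400 to 119471319) measured 342, 399 and 401 CPM with IL-33 and 428, 406 and 201 CPM in Control. Its log2 fold change was 0.14 ± 0.30 with all libraries and -0.13 without Control 3, so that this library decided the sign. SLC25A4 (chromosome 4, 185143241 to 185150382) measured 27.8, 26.6 and 24.5 CPM with IL-33 and 29.9, 33.5 and 19.7 CPM in Control, again lowest in Control 3, with a log2 fold change of -0.08 ± 0.20 (-0.27 without Control 3).

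SLC25A5, the form of proliferating cells, made up 92.5%, 93.7% and 94.2% of the ADP/ATP carrier counts with IL-33 and 93.5%, 92.4% and 91.1% in Control. The means of 93.5% ± 0.904 with IL-33 and 92.3% ± 1.2 in Control (SD, n = 3 each) lay 1.15 points apart with overlapping libraries (two-sided exact permutation p = 0.2, adjusted p = 0.7 over 7 families). That difference was 0.533 points without Control 3 and 1.73 points without Control 1. SLC25A31, the germ cell form, had 4 counts in IL-33 2 and 0 in every other library.

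SLC25A6, the third somatic ADP/ATP carrier, was listed at 0 in all 6 libraries. Its gene lies in the pseudoautosomal region that chromosomes X and Y share (X, 1386152 to 1392724). Of the 18 protein-coding genes in the table that GENCODE release 29 annotates on both chromosomes, 17 had 0 counts in every library and the other, CD99, had 1 count in all. Among the other protein-coding genes of chromosome X, 299 of 792 (37.8%) had 0 counts. The 0 of SLC25A6 is therefore shared by a block of genes that includes GTPBP6, ZBED1, AKAP17A and VAMP7, and no level or fold is given for it. The sources used here do not say how reads matching both chromosomes were counted. Shares within the ADP/ATP carriers are accordingly shares of SLC25A4, SLC25A5 and SLC25A31 counts alone. The summed level of the carriers, the shares of all carrier counts and the ranking by abundance likewise leave SLC25A6 out.

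The ATP-Mg/phosphate carriers exchange ATP-Mg for phosphate under the control of calcium and set the size of the adenine nucleotide pool in the matrix. They were the tested family in which the share of the most counted member, SLC25A23, separated between the groups. SLC25A23 (chromosome 19, 6436079 to 6465203) made up 50.04%, 48.2% and 51.9% of the family's counts with IL-33 (95% Wilson intervals 47.2% to 52.8%, 45.5% to 51.0% and 48.9% to 54.9%) and 42.3%, 38.1% and 46.9% in Control (39.7% to 44.9%, 35.3% to 41.0% and 42.8% to 51.1%). Every IL-33 library lay above every Control library, with means of 50.1% ± 1.82 with IL-33 and 42.4% ± 4.41 in Control (SD, n = 3 each), 7.62 points apart. The two-sided exact permutation p was 0.1, the smallest that 3 against 3 libraries allow, and 0.7 after adjustment over the 7 families. The highest Control share was that of Control 3, and without it the difference was 9.87 points. The shares of SLC25A24 overlapped (23.2%, 30.2% and 26.7% with IL-33, 34.1%, 33.6% and 21.7% in Control). Those of SLC25A25 overlapped as well (26.7%, 21.5% and 21.3% with IL-33, 23.3%, 27.2% and 30.1% in Control), and neither was tested.

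SLC25A23 itself measured 65.4, 59.1 and 64.6 CPM with IL-33 and 58.9, 52.1 and 47.1 CPM in Control. The groups did not overlap, although IL-33 2 and Control 1 were close, and the log2 fold change was 0.26 ± 0.14 (edgeR, unadjusted p = 0.0807, adjusted p = 0.999; 0.18 without Control 3). SLC25A24 (chromosome 1, 108134036 to 108200849) measured 30.4, 37.0 and 33.2 CPM with IL-33 and 47.6, 45.9 and 21.7 CPM in Control. Controls 1 and 2 lay above all IL-33 libraries and Control 3 below them. Its log2 fold change was -0.21 ± 0.24 with all libraries and -0.48 without Control 3. In that second fit edgeR gave SLC25A24 an unadjusted p of 0.00382 and an adjusted p of 0.463, the smallest of the tested carriers. There, 2 of 38 carriers tested and 794 of all 12611 genes tested had an edgeR unadjusted p under 0.05. SLC25A25 (chromosome 9, 128068201 to 128109245) measured 34.9, 26.4 and 26.5 CPM with IL-33 and 32.5, 37.1 and 30.2 CPM in Control, with a log2 fold change of -0.19 ± 0.18 with all libraries. Its exons overlap those of NAIF1, a gene on the opposite strand with 918 counts. No strand setting of the counting is stated. Where such overlaps lie relative to the 3′ ends was not compared, so whether reads of such pairs mix was not tested.

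SLC25A41, an ATP-Mg/phosphate carrier that lacks the calcium-binding part, lies beside SLC25A23 on chromosome 19 (6426037 to 6433779). It had 0, 0 and 1 count with IL-33 and 4, 12 and 7 counts in Control, too few to pass the filter. With the counts of each group pooled, the ratio of its rates was 0.0370, with an exact interval of 0.000898 to 0.228. That interval covers counting error only and leaves out the spread between libraries. PCR reads without molecular identifiers are also not independent molecules. Fitted without the filter on low counts, it had an edgeR unadjusted p of 0.0351 and an adjusted p of 0.995. This gene was singled out after its values were seen.

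**Figure D2:**
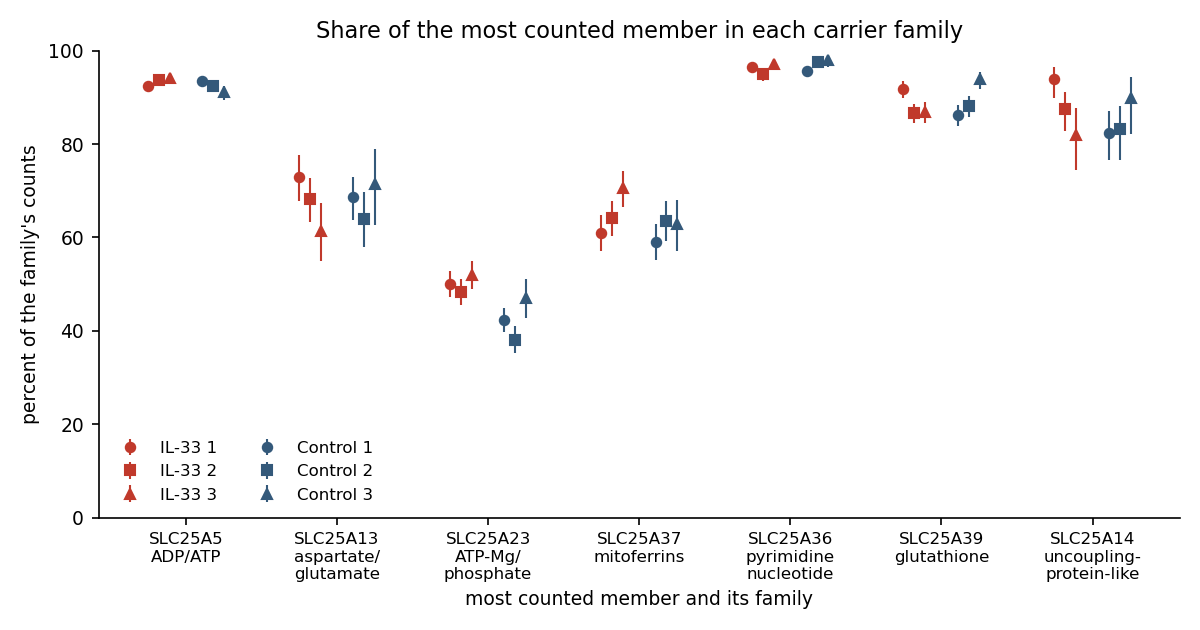
Share of the most counted member in the counts of its carrier family (percent) in each IL-33 library (red, left) and Control library (blue, right) for the 7 families tested; bars are 95% Wilson intervals, which cover counting error only. SLC25A23 is the member whose IL-33 libraries (48.2% to 51.9%) all lie above the Control libraries (38.1% to 46.9%).

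In the other 5 families tested, the libraries of the groups overlapped and the adjusted permutation p lay between 0.7 and 0.9. Among the mitoferrins, which bring iron to the sites of heme and iron-sulfur cluster synthesis, SLC25A37 took 61.0%, 64.2% and 70.6% with IL-33 and 59.1%, 63.5% and 62.8% in Control. SLC25A37 is best known from red cell precursors, while its paralog SLC25A28 is broadly expressed, and in HMC3 the SLC25A37 transcript was the more abundant in every library. SLC25A37 measured 41.6, 38.4 and 43.5 CPM with IL-33 and 37.8, 36.7 and 34.2 CPM in Control, without overlap, and had a log2 fold change of 0.18 ± 0.15. SLC25A28 measured 26.5, 21.4 and 18.2 CPM with IL-33 and 26.2, 21.0 and 20.3 CPM in Control, with a log2 fold change of -0.04 ± 0.21 (-0.10 without Control 3).

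The glutathione carriers, which supply the matrix with this antioxidant, were dominated by SLC25A39, at 91.9%, 86.7% and 86.9% with IL-33 and 86.2%, 88.2% and 93.9% in Control. SLC25A39 measured 87.9, 82.1 and 89.0 CPM with IL-33 and 77.7, 87.0 and 111 CPM in Control, where Control 3 was highest. Its log2 fold change was -0.09 ± 0.13, and 0.07 without Control 3. SLC25A40 measured 7.78, 12.6 and 13.4 CPM with IL-33 and 12.4, 11.7 and 7.24 CPM in Control, with a log2 fold change of 0.10 ± 0.30 (-0.10 without Control 3). Its exons overlap those of DBF4 on the opposite strand, a cell cycle gene with 3351 counts against 578 of SLC25A40.

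SLC25A36 held nearly all counts of the pyrimidine nucleotide carriers, which serve mitochondrial DNA and RNA synthesis, with means of 96.1% ± 1.09 with IL-33 and 97.1% ± 1.2 in Control. It measured 140, 123 and 144 CPM with IL-33 and 149, 147 and 116 CPM in Control, with a log2 fold change of -0.02 ± 0.12 (-0.12 without Control 3). Of the aspartate/glutamate carriers of the malate-aspartate shuttle, SLC25A13 (citrin, the liver form) took 67.5% ± 5.86 with IL-33 and 68.0% ± 3.80 in Control, the rest falling to SLC25A12 (aralar, the form of brain and muscle). The uncoupling-protein-like carriers were mostly SLC25A14, at 87.8% ± 5.95 with IL-33 and 85.2% ± 4.03 in Control. The glutamate, ornithine and NAD families had a single member above 1 CPM each, SLC25A22, SLC25A15 and SLC25A51, and were not tested. SLC25A51 shared 63.8% of its 50-base windows at the 3′ end with other annotated genes, among them SLC25A52 and pseudogenes, and reads from there cannot be assigned to 1 gene; its mean was 5.63 CPM. SLC25A2, the second ornithine carrier, had 0 counts, SLC25A18, the second glutamate carrier, 47 counts in all, and SLC25A52, the second NAD carrier, 3.

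The di- and tricarboxylate carriers connect the citric acid cycle with cytosolic lipid synthesis and redox shuttles. All 4 were tested, all 4 had a log2 fold change below 0 with all libraries (SLC25A1 and SLC25A11 not without Control 3), and 0 passed the test. The citrate exporter SLC25A1 measured 200, 185 and 236 CPM with IL-33 and 215, 190 and 234 CPM in Control, with a log2 fold change of -0.04 ± 0.11, and 0.03 without Control 3. The dicarboxylate carrier SLC25A10 measured 40.6, 40.3 and 40.4 CPM with IL-33 and 46.4, 45.4 and 54.5 CPM in Control. Its groups did not overlap, and its log2 fold change was -0.27 ± 0.15 (-0.18 without Control 3), with an edgeR unadjusted p of 0.0887 and an adjusted p of 0.999. The oxoglutarate/malate carrier SLC25A11 measured 97.6, 95.7 and 83.9 CPM with IL-33 and 85.1, 99.9 and 133 CPM in Control. Its log2 fold change of -0.19 ± 0.14 came to 0.00 without Control 3. It overlaps RNF167 on the opposite strand, a gene with 6496 counts, against 5030 of SLC25A11. The oxodicarboxylate carrier SLC25A21 was near the detection limit, with 3, 12 and 8 counts with IL-33 and 27, 8 and 11 counts in Control, and a log2 fold change of -1.20 ± 0.77. On the opposite strand it overlaps SLC25A21-AS1, with 93 counts against 69 of its own, and PAX9, with 48.

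Among 10 amino acid and acylcarnitine carriers, 8 were tested, 6 had a log2 fold change above 0 and 2 below (4 and 4 without Control 3), and 0 passed. SLC25A44, which takes branched-chain amino acids into mitochondria, measured 28.6, 30.2 and 30.9 CPM with IL-33 and 25.3, 25.97 and 21.2 CPM in Control. The groups did not overlap, and the log2 fold change was 0.30 ± 0.18 (0.22 without Control 3). SLC25A38, a glycine importer needed for heme synthesis, measured 22.9, 22.6 and 22.0 CPM with IL-33 and 30.3, 30.2 and 21.0 CPM in Control. All IL-33 libraries lay below Controls 1 and 2 and above Control 3, and the log2 fold change of -0.28 ± 0.19 came to -0.43 without Control 3, with an edgeR adjusted p of 0.729 there. The remaining tested members, SLC25A12, SLC25A13, SLC25A15, SLC25A20, SLC25A22 and SLC25A29, had log2 fold changes between -0.05 and 0.38. Without Control 3, SLC25A12 came to -0.16, SLC25A13 to -0.08 and SLC25A15 to -0.39.

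Of 10 cofactor and other nucleotide carriers, 8 were tested, 5 had a log2 fold change above 0 and 3 below (4 and 4 without Control 3), and 0 passed. SLC25A16, a carrier linked to coenzyme A, measured 5.01, 8.69 and 12.3 CPM with IL-33 and 6.95, 5.05 and 4.16 CPM in Control. The groups overlapped, since IL-33 1 lay among the Control libraries, and the log2 fold change of 0.66 ± 0.37 ran from 0.33 to 0.94 with a library left out. The coenzyme A carrier SLC25A42, singled out after its values were seen, measured 7.78, 9.28 and 9.78 CPM with IL-33 and 14.3, 8.78 and 3.08 CPM in Control. Its log2 fold change was 0.00 ± 0.40 with all libraries and -0.37 without Control 3. The folate and FAD carrier SLC25A32 had a log2 fold change of -0.11 ± 0.18, and 0.01 without Control 3. It shared 90.8% of its terminal windows with another gene model, AC012213.5, and overlaps DCAF13 on the opposite strand, with 1676 counts against 1424 of its own. The peroxisomal carrier SLC25A17 had -0.21 ± 0.16 as its log2 fold change (-0.12 without Control 3). SLC25A26, which imports S-adenosylmethionine, differed by 0.18 ± 0.19 on the log2 scale, and the pyrimidine carrier SLC25A33 by 0.31 ± 0.43 (0.05 without Control 3). Of the uncoupling-protein-like members, SLC25A14 had a log2 fold change of 0.18 ± 0.24 and SLC25A30 one of 0.12 ± 0.65 (-0.22 without Control 3), while SLC25A27 had 30 counts and was not tested. SLC25A30 overlaps TPT1-AS1 on the opposite strand, which had 220 counts against 107 of SLC25A30.

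SLC25A46 was the carrier with the smallest p. Its protein sits in the outer membrane and takes part in mitochondrial fission and contacts rather than in transport. The gene (chromosome 5, 110738136 to 110765161) measured 17.7, 19.8 and 24.3 CPM with IL-33 and 26.4, 27.6 and 30.2 CPM in Control. Every IL-33 library lay below every Control library, with means of 20.6 ± 3.36 CPM with IL-33 and 28.1 ± 1.94 CPM in Control (SD, n = 3 each). The log2 fold change was -0.45 ± 0.19 (95% interval -0.85 to -0.04), with an edgeR unadjusted p of 0.0314 and an adjusted p of 0.999. The estimate ran from -0.58 to -0.35 with a library left out and was -0.39 without Control 3. The orphan members SLC25A35, SLC25A43 and SLC25A45 had log2 fold changes between -0.13 and 0.07 (all below 0 without Control 3), and SLC25A34 and SLC25A53 had too few counts to be tested.

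**Figure D3:**
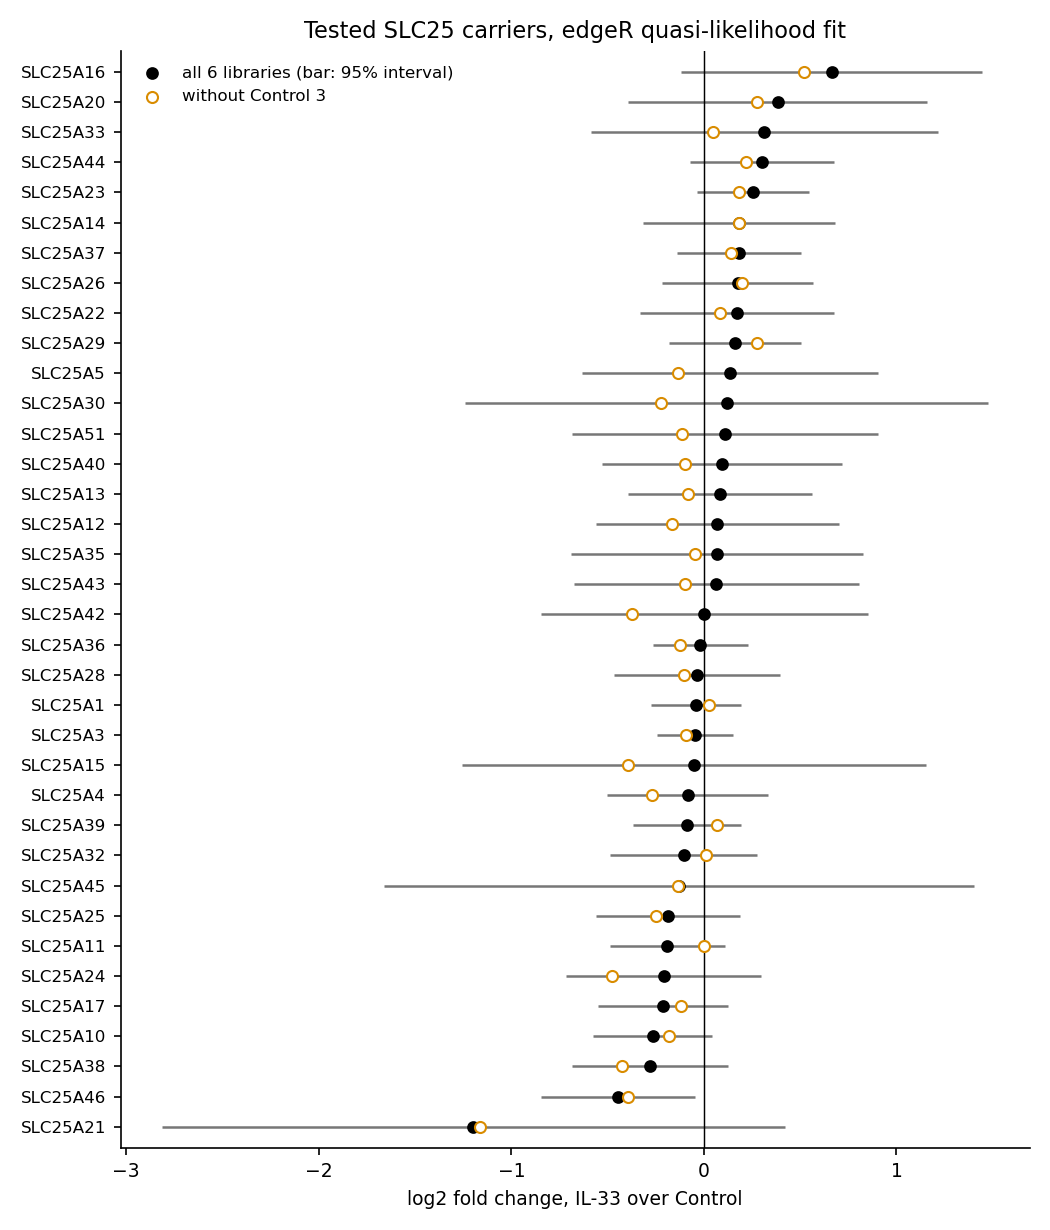
Log2 fold change of IL-33 over Control for the 36 tested SLC25 carriers; black points with bars are the fit on all 6 libraries with its 95% interval, and open points the fit without Control 3. SLC25A46 (-0.45) is the sole carrier whose interval does not reach 0, and SLC25A5 moves to the other side of 0 when Control 3 is left out.

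Control 3 stood apart in many carriers. It was the lowest of the 6 libraries in 18 of 36 tested carriers, against 27.1% of all tested genes, and the highest in 6 (16.7%, against 26.1%). Its median log2 difference from Controls 1 and 2 was -0.29 over the tested carriers and 0.00 over all tested genes. In 25 of the 36, this difference was larger in size than the difference between IL-33 and Control. The same share over all tested genes was not computed, so this count is not read as particular to the carriers. Carriers at 10 CPM or more went both ways, with log2 differences of -1.05 for SLC25A5, -1.10 for SLC25A24 and -0.68 for SLC25A4, but 0.53 for SLC25A11 and 0.44 for SLC25A39. Besides SLC25A5, the carriers at a mean of 100 CPM or more differed less, by -0.13 for SLC25A3, 0.21 for SLC25A1 and -0.35 for SLC25A36. Control 3 was also the library of lowest depth, and the part of depth in these differences was not tested. Without SLC25A5, the summed level of the carriers was 1531 ± 14.7 CPM with IL-33 and 1571 ± 52.0 CPM in Control (SD, n = 3 each).

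**Figure D4:**
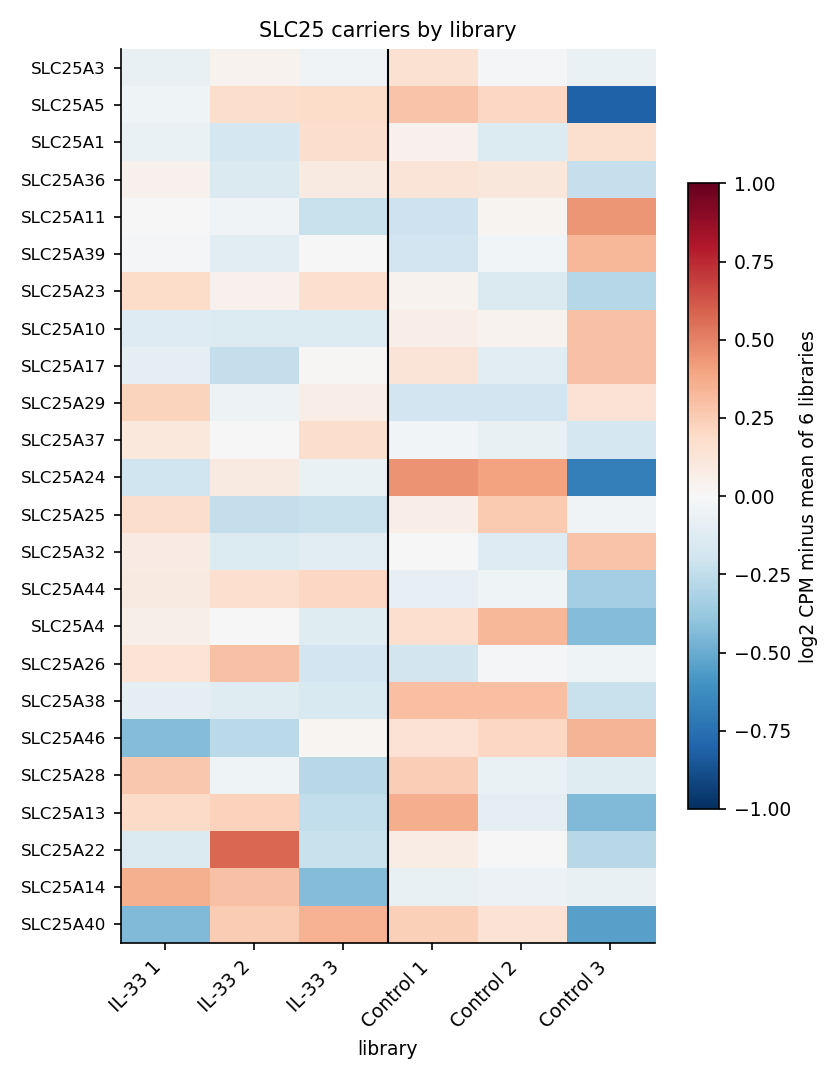
Log2 CPM of each SLC25 carrier at 10 CPM or more, minus its mean over the 6 libraries, with IL-33 libraries left of the line and Control libraries right of it; red is above the mean and blue below. The darkest blue cells are SLC25A5 and SLC25A24 in Control 3, which held 201 and 21.7 CPM.

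The family also has members under other symbols. MTCH1 and MTCH2, carrier-like proteins of the outer membrane, and UCP2, an uncoupling protein relative, were tested and 0 passed. MTCH1 averaged 522 ± 21.6 CPM with IL-33 and 560 ± 87.9 CPM in Control, MTCH2 222 ± 7.46 CPM with IL-33 and 218 ± 1.76 CPM in Control, and UCP2 259 ± 17.6 CPM with IL-33 and 265 ± 28.7 CPM in Control (SD, n = 3 each). UCP1, the thermogenic form of brown fat, had 0 counts, and UCP3, that of muscle, 48 counts in all.

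Genes around the carriers were likewise without a call. All 13 genes of the import route that inserts carriers into the inner membrane through TOMM70 and the TIMM22 complex were tested, and 0 passed, with a median log2 fold change of -0.01. The 2 with the smallest p were AGK, a subunit of that complex, at 12.6 ± 2.74 CPM with IL-33 and 16.8 ± 4.91 CPM in Control, and the chaperone TIMM10, at 20.9 ± 3.39 CPM with IL-33 and 23.9 ± 1.04 CPM in Control. Of 17 other mitochondrial transporters and channels, 0 passed (median -0.01). The pore of the calcium uniporter, MCU, measured 43.7, 52.9 and 43.5 CPM with IL-33 and 34.9, 38.7 and 36.2 CPM in Control, without overlap (edgeR, unadjusted p = 0.0341, adjusted p = 0.999), and the serine transporter SFXN1 averaged 91.7 ± 5.53 CPM with IL-33 and 102 ± 5.25 CPM in Control.

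Of the enzymes that the carriers feed, 8 of the malate-aspartate shuttle and citrate export list were tested (median log2 fold change -0.02), 7 of mitochondrial one-carbon and proline metabolism (0.08) and 10 of iron-sulfur and heme synthesis (-0.01), and 0 of each passed. In the first list GOT2 averaged 185 ± 16.4 CPM with IL-33 and 203 ± 24.1 CPM in Control, and FASN 598 ± 44.1 CPM with IL-33 and 661 ± 70.7 CPM in Control. In the second, MTHFD1L averaged 37.0 ± 1.78 CPM with IL-33 and 33.3 ± 1.12 CPM in Control, and PYCR1 284 ± 13.2 CPM with IL-33 and 310 ± 52.3 CPM in Control. In the third, FDX1 averaged 25.02 ± 6.31 CPM with IL-33 and 19.9 ± 3.20 CPM in Control. Of 8 regulators of mitochondrial biogenesis, 6 were tested and 0 passed (median -0.04), and the 2 with the smallest p, PPARGC1B and TFB2M, lay at 1.10 and 5.72 CPM over the 6 libraries. Of the 6 rows with an SLC25A symbol outside the rule, SLC25A30-AS1 and the pseudogenes SLC25A3P1 and SLC25A51P1 had 0 counts. SLC25A5-AS1, which overlaps SLC25A5 on the opposite strand, had 7, 13 and 2 counts with IL-33 and 22, 23 and 7 counts in Control, with a log2 fold change of -1.44 ± 0.77 that did not pass. SLC25A21-AS1 had 93 counts in all and SLC25A25-AS1 42.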

How the data were processed

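Per the labels' protocols, TRIZOL served for extraction and a Lexogen QuantSeq 3′ FWD kit for the libraries. The authors deposited whole-number read counts per gene symbol for 6 libraries. Per the submitters' processing notes, the tools were HTSeq 0.6.1, STAR 2.7.5a and edgeR, in no stated role, and the build was hg38. Annotation and strand setting were not given in the sources used here. Of 27470 rows, 1 held no values and was left out.

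The whole table was fitted with edgeR 4.0.16 in R 4.3.3 (filterByExpr at a count minimum of 10 and a total minimum of 15, TMM scaling, robust quasi-likelihood test, Benjamini-Hochberg adjustment over all 12125 genes, threshold 0.05), after a check on simulated counts. Log-scale levels used a prior count of 2. Shares within 10 families were computed from counts and tested over libraries where at least 2 members had a mean of 1 CPM, which 7 did, with scipy 1.17.1. Positions, overlaps and sequences came from GENCODE release 29, matched by symbol for 48 of 48 members. As alternatives the table was refitted with limma-voom (limma 3.58.1) and DESeq2 1.42.0; figures used matplotlib 3.10.9. Members and lists were chosen with earlier results of these data known. Values in every library are given for members of families with 2 or more at 10 CPM, the 4 of smallest p in each direction and the 5 most abundant; of each pathway list the 2 genes of smallest p are named, except that 1 such gene and 1 carrier with few counts are not reported here, and any further gene was picked with its values known. Libraries of the same group differed beyond sampling noise (chi-square over its degrees of freedom 5.60 to 16.5), so none were merged for the tests. The ratio given for SLC25A41 is the exception, since it pools the counts of each group.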

Additional observations from a re-analysis of the deposited data

How the results depend on the processing

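The count of 0 carriers past the threshold held in all 14 alternatives tried, which changed the scaling, the low-count filter, the tool, the threshold and the block or left out a library. Over all genes edgeR called 3 without the low-count filter and 6 without Control 3, DESeq2 called 1, and with a library left out edgeR called between 0 and 6. The labels do not say whether equal replicate numbers mean pairing. Deviations of libraries with the same number correlated at -0.09, 0.03 and -0.14, and not every library correlated best with its own number. With the replicate block 0 carriers and 0 genes were called and the median log2 fold change of the carriers was 0.04. That median was -0.01 without the low-count filter, -0.03 at 10 CPM or more and -0.02 with limma-voom, and lay between -0.09 and 0.11 in the leave-one-out fits, where the difference in summed CPM ran from -93.2 to 66.9. The sign of 3 share differences turned with a library left out, namely SLC25A13 (-3.25 to 2.58 points), SLC25A39 (-2.64 to 1.28) and SLC25A14 (-0.40 to 5.55), while that of SLC25A23 ran from 5.46 to 9.87. Of the 19 carriers chosen by rule for values in every library, 9 turned sign in this way: SLC25A1 (-0.15 to 0.032), SLC25A3 (-0.092 to 0.020), SLC25A4 (-0.27 to 0.073), SLC25A5 (-0.13 to 0.32), SLC25A11 (-0.33 to 0.00028), SLC25A28 (-0.19 to 0.093), SLC25A36 (-0.12 to 0.051), SLC25A39 (-0.20 to 0.068) and SLC25A40 (-0.097 to 0.30). SLC25A42, which is outside these 19, also turned sign (-0.37 to 0.56). So did SLC25A12, SLC25A13, SLC25A15, SLC25A22, SLC25A30, SLC25A32, SLC25A35, SLC25A43, SLC25A45 and SLC25A51. The cause was not tested. None of the 19 turned sign under the other alternatives. In the main fit, 29 of the 36 tested carriers had a 95% interval of the log2 fold change within -1 to 1. These included all 24 at 10 CPM or more. Whether the intervals stayed within these bounds in the alternative fits was not counted.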
